A study of Gorilla gorilla gorilla with 14 samples.

Results

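The promoters of zinc finger genes on human chromosome 19 were followed in gorilla cerebral organoids, by the assay for transposase-accessible chromatin (ATAC-seq), in which an enzyme inserts sequencing adapters into open chromatin. A promoter was counted as a member when its region had a gorilla position, lay at most 1000 bp from its closest gene, carried as that gene's symbol ZNF followed by digits alone, and lay on chromosome 19 of the human assembly hg38. The choice rested on names and positions and used no measured value. It gave 169 of 204249 regions, belonging to 166 genes, and all 169 passed the filter on low counts. In the gorilla assembly gorGor6 all of them also lay on chromosome 19. They were set beside 20510 tested promoter regions of any gene, which include them, beside 172 ZNF promoters on other human chromosomes, and beside 727 promoters of other genes on human chromosome 19.

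The study sorted 4 cell types at week 8 of organoid culture. They were neurons (N, labelled BCL11B+ neuron, 4 libraries), basal intermediate progenitors (bIP, 5 libraries), basal radial glia (bRG, 2 libraries) and apical radial glia (aRG, 3 libraries). All 14 libraries came from GC1, a single gorilla induced pluripotent stem cell line, with no genetic change or treatment named in the labels, and the cells were crosslinked before the transposase reaction. The library numbers in the labels fall into a first series (N1, N2, bIP1 to bIP3, aRG1 and aRG2) and a second series (N3, N4, bIP4, bIP5, bRG1, bRG2 and aRG3). What else set the series apart is not given in the sources used here, and bRG is present in the second series alone. No label says that replicates came from separate cultures, so the p-values measure the spread between these libraries, which may be technical.

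C2H2 zinc finger proteins read DNA through a row of fingers, each gripping a few bases, and the family multiplied in primates by repeated duplication of neighbouring genes. Many members carry a KRAB domain, which recruits the corepressor TRIM28 and through it the histone methyltransferase SETDB1 and heterochromatin proteins. Proteins of this kind are best known for silencing transposable elements, each set of fingers being matched to certain elements. In human cells ZNF91 represses SVA elements, ZNF93 represses LINE-1 elements, and ZNF274 binds the 3′ ends of other zinc finger genes and brings SETDB1 to them.

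Total counts per library lay between 12835000 (bIP3) and 26660400 (aRG1), so that 3 counts, taken as the floor of detection, equalled 0.114 to 0.208 counts per 1000000 counts (CPM), a value that covers counting error only. N3 stood apart from the rest. Promoter regions held 30.4% of its counts, against 32.7% to 39.1% in the other 13 libraries. The CPM of the 169 members summed to 2593 in N3 and 3203 in bIP3, the lowest sums, against 3453 to 4552 in the other 12 libraries. Sorting labels were checked on promoters of 30 listed marker genes, of which 28 were measured. The SOX2 promoter (radial glia) averaged 9.60 ± 1.56 CPM in N, 32.9 ± 7.73 CPM in bIP, 49.0 ± 3.71 CPM in bRG and 59.3 ± 1.59 CPM in aRG (SD), and the EOMES promoter (intermediate progenitors) was highest in bIP, at 83.0 CPM against 36.5 CPM in N, 45.8 CPM in bRG and 31.5 CPM in aRG. The BCL11B promoter, the gene of the neuron label, did not set N apart, with 20.3 ± 3.80 CPM in N and 23.6 ± 3.03 CPM in bIP (SD, log2 difference −0.22, adjusted p = 0.276). The other neuron markers, STMN2, NEUROD6, TBR1 and MAPT, were called higher in N than in aRG (log2 differences 2.16, 1.66, 0.79 and 0.65). Against bIP, only STMN2 and MAPT were called higher in N (0.48 and 0.58). NEUROD6 was not called (0.16), and TBR1 was called lower in N than in bIP (−0.47). No marker was called between bRG and aRG. The bRG markers HOPX, FAM107A, PTPRZ1 and TNC averaged 20.9, 15.7, 27.6 and 24.2 CPM in bRG. In aRG they averaged 25.2, 17.1, 28.3 and 22.6 CPM. In bulk libraries a smaller share of cells with an open promoter and a less open promoter in every cell cannot be told apart.

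Zinc finger promoters on chromosome 19 were open in every cell type and varied little. The median member had 14.6 CPM per kb of region, averaged over the 4 group means, against 16.4 CPM per kb for ZNF promoters elsewhere, 12.8 CPM per kb for other promoters on chromosome 19 and 9.06 CPM per kb for all promoters. The ratio of the highest to the lowest of the 4 group means was below 1.5 for 142 members (84.0%), for 72.7% of ZNF promoters elsewhere and for 43.2% of all promoters. It reached 2 for 14 members (8.28%), for 8.14% of ZNF promoters elsewhere and for 36.8% of all promoters. The SD of log2 CPM over the 14 libraries had a median of 0.262 over the members and 0.342 over all promoters. These shares are descriptions, because group means also carry the balance of the library series and because a low promoter varies more by counting alone.

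The peak sets that the authors deposited, 1 for each cell type, covered nearly all members. A peak touched 162 members (95.9%) in the N set, 166 (98.2%) in the bIP set, 164 (97.0%) in the bRG set and 162 (95.9%) in the aRG set. Of all promoter regions, 64.7% were touched in N, 66.4% in bIP, 67.2% in bRG and 66.9% in aRG. Peaks of all 4 sets touched 161 members. Of the other 8, ZNF560 and the second of the regions assigned to ZNF66 had none, ZNF177, ZNF441 and ZNF729 had peaks in the bIP and bRG sets alone, ZNF257 had peaks in the N and aRG sets alone, and the second regions of ZNF121 and ZNF814 had a peak in the bIP set alone.

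The levels of single members per length spanned a wide range. ZNF444, which encodes a SCAN domain protein, was highest at 40.9 CPM per kb. It was followed by ZNF414 at 37.3, ZNF575 at 37.2, ZNF667 at 34.8 and ZNF428 at 33.8 CPM per kb. The lowest were ZNF560 at 0.739, the second ZNF66 region at 1.61, ZNF729 at 2.07, ZNF257 at 2.08 and ZNF177 at 3.07 CPM per kb. Of these 5 lowest, 4 were also among the promoters that differed most between the library series.

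**Figure D1:**
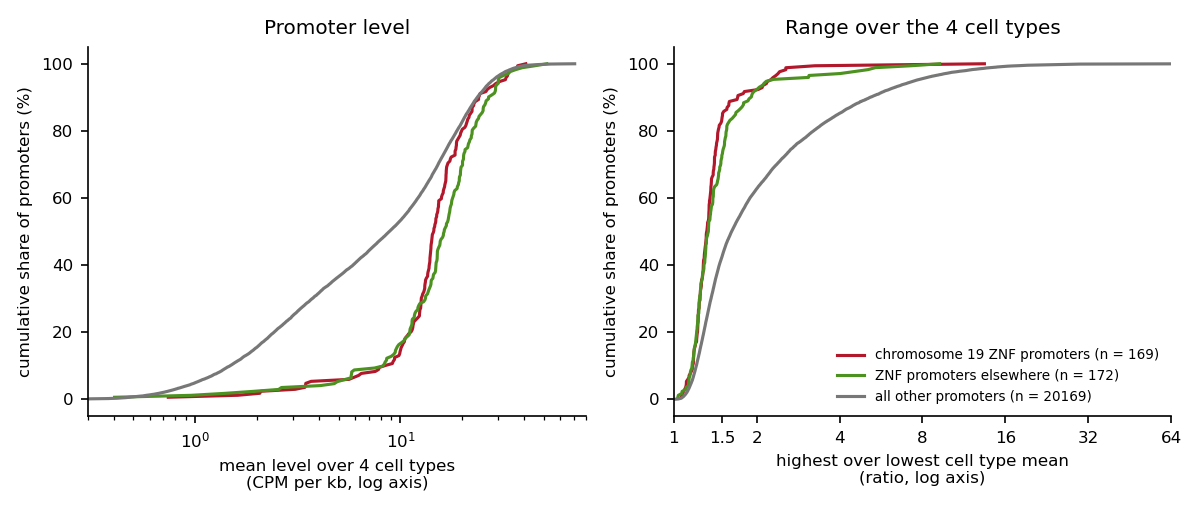
Left, cumulative share of promoters (%) by level, in CPM per kb of region averaged over the 4 group means on a log axis; right, cumulative share by the ratio of the highest to the lowest group mean on a log axis. Zinc finger promoters on chromosome 19 have a median of 14.6 CPM per kb, and 84.0% of them stay below a ratio of 1.5, beside ZNF promoters elsewhere and all other promoters.

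The widest differences among the members were those between the library series, not between cell types. The series term of the fit, which compares the second with the first series within cell types, called 11 members higher (6.51%) and 1 lower (0.592%) in the second series at an adjusted p below 0.05. Over all regions tested it called 9.35% higher and 6.49% lower, and over all promoters 7.67% higher and 4.21% lower, so with TMM scaling the members' share was not above the background. The lower calls depended on the scaling. Promoter factors (scaling factors taken from promoters alone) gave 11 higher and 24 lower members, where 4.92% of all regions were lower. Loess offsets gave 11 and 49, where 8.08% of all regions were lower, and a minimum of 10 CPM in 2 libraries gave 8 and 55, where 12.6% were lower. With TMM scaling the median log2 difference was −0.0546 over the members and 0.0300 over all promoters. Calls of at least 4-fold numbered 5 of 169 members, 0 of 172 ZNF promoters elsewhere, 9 of 727 other promoters on chromosome 19 and 66 of 20510 promoters in all, and 0.29% of all regions. Counted by gorilla chromosome (gorGor6), 19 had the highest share of such promoters, 14 of 892 (1.57%). It was followed by gorilla chromosome 21 with 2 of 250 (0.8%) and chromosome 5 with 12 of 1658 (0.724%). No test was made of this count.

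ZNF441 (chr19:7252390-7254042, gorGor6) was nearly closed in the first series and open in the second. In second-series libraries it had 15.1 and 17.6 CPM in N, 27.4 and 27.7 CPM in bIP, 23.6 and 23.7 CPM in bRG and 28.6 CPM in aRG. In first-series libraries it had 1.99 and 2.31 CPM in N, 1.40, 1.49 and 2.01 CPM in bIP, and 1.74 and 2.50 CPM in aRG. The groups did not overlap, and raw counts were 315 to 620 in second-series libraries against 23 to 51 in first-series libraries. On the log2 scale the series differed by 3.62 ± 0.181 (SE, adjusted p = 8.83e-13). It was smaller in N, where the second series exceeded the first by 2.94, than in bIP, where it did so by 4.10 (log2 difference of the differences −1.16 ± 0.344, SE, adjusted p = 0.0320). ZNF441 was the only member called in that test of the interaction, which called 4.01% of all regions higher and 4.32% lower. Most of the members leaned the same way there: the median over the members was −0.550, with 165 of 169 below 0, and over all promoters it was −0.426. Of the 10 other regions within 100 kb, 2 were called in the same direction, both outside promoters and assigned to HNRNPA1P10, with log2 differences of 1.89 at 85.4 kb (adjusted p = 7.59e-07) and 0.93 at 94.95 kb (adjusted p = 0.0176). ZNF823, ZNF491 and ZNF440, the members within 100 kb of it, had log2 differences of −0.26, −0.08 and 0.00 between the second and the first series, and none was called.

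ZNF729 (chr19:17706495-17707925) behaved alike at a lower level. In second-series libraries it had 3.75 and 5.96 CPM in N, 5.48 and 4.44 CPM in bIP, 4.70 and 5.20 CPM in bRG and 5.69 CPM in aRG. In first-series libraries it had 0.468 and 0.476 CPM in N, 0.227, 0.324 and 0.347 CPM in bIP, and 0.316 and 0.125 CPM in aRG. These first-series values stood on 2 to 12 counts a library, near the floor, while second-series libraries held 78 to 127 counts. The log2 difference was 3.93 ± 0.239 (SE, adjusted p = 3.99e-11), and its size rests on those few counts. It is among the 5 members whose gorilla and human lengths differ by more than 20%.

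ZNF257 (chr19:17474515-17475507), which lies between ZNF43 and ZNF729 in the same cluster, went the other way. In second-series libraries it had 0.24 and 0.141 CPM in N, 0.354 and 0.145 CPM in bIP, 0.303 and 0.234 CPM in bRG and 0.637 CPM in aRG. In first-series libraries it had 3.74 and 4.69 CPM in N, 4.05, 4.08 and 2.36 CPM in bIP, and 5.26 and 4.93 CPM in aRG. Counts were 3 to 13 against 34 to 133, and the series did not overlap (log2 difference −3.73 ± 0.279, SE, adjusted p = 1.49e-09). ZNF257 was the only member that the series term called lower with TMM scaling. Neither it nor ZNF729 had another region of the table within 100 kb.

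ZNF177 and ZNF560 lie near each other on the short arm. ZNF177 (chr19:5680097-5681156) averaged 5.19 ± 0.568 CPM in the second series and 0.854 ± 0.261 CPM in the first (SD, n = 7 each), a log2 difference of 2.64 ± 0.203 (SE, adjusted p = 2.77e-09). ZNF560 (chr19:5825277-5826216) averaged 1.11 ± 0.292 CPM in the second series and 0.219 ± 0.0908 CPM in the first (SD), a log2 difference of 2.35 ± 0.302 (SE, adjusted p = 9.54e-06), with no more than 33 counts in any library. Every second-series library exceeded every first-series library at both promoters. The members between and beside them did not follow, with log2 differences of −0.13 for ZNF699 and −0.31 for ZNF266, which were not called. The promoter of the read-through gene ZNF559-ZNF177 (chr19:5641142-5642467), 38.8 kb from the ZNF177 promoter and outside the member rule because of its double name, had 18.9 ± 3.17 CPM in the second series and 0.494 ± 0.141 CPM in the first (SD). Its log2 difference of 5.33 ± 0.191 (SE, adjusted p = 9.28e-16) was larger than that of any member.

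The other 7 called members differed less between the series. ZNF730 (chr19:18322308-18323868) averaged 12.3 ± 3.17 CPM in the second series and 3.61 ± 0.944 CPM in the first (SD; log2 difference 1.77, adjusted p = 1.12e-07). ZNF66 (chr19:16172176-16173758) averaged 20.5 ± 3.18 CPM in the second series and 10.1 ± 2.01 CPM in the first (SD; log2 difference 1.09, adjusted p = 3.52e-05). ZNF665, ZNF681, ZNF135, ZNF493 and ZNF835 had log2 differences of 1.03, 0.89, 0.88, 0.60 and 0.45, the last with an adjusted p of 0.0345. The series overlapped at ZNF135, ZNF493 and ZNF835 and did not overlap at the other 9 called members. This only describes the 12, which were picked by their series difference, and overlap was not counted over all regions. All 12 had the same sign within N and within bIP, where estimates per cell type were possible. These estimates rest on libraries that the series term also used to call the 12, so the agreement is not independent of that choice. In those estimates all 12 were called within bIP, 11 higher (6.51%) and 1 lower (0.592%), and no other member was. Over all promoters 9.32% were higher and 2.47% lower within bIP, so the members' share was not above that of promoters. Within N 7 members were called higher, all of them among the 12, and 10 lower (5.92%), which are ZNF257 and 9 members that the series term did not call. Over all promoters 4.26% were higher and 5.57% lower within N. The median log2 difference between the second and the first series was −0.340 over the members within N and 0.211 within bIP. No member near any of the 12, within 100 kb, was called. Regions that are not members were called beside some of them, among them the promoter of AC074135.1, 40.2 kb from ZNF730, with 12 ± 5.15 CPM in the second series and 1.42 ± 0.284 CPM in the first (SD), and 15 of the 19 other regions around ZNF835.

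**Figure D2:**
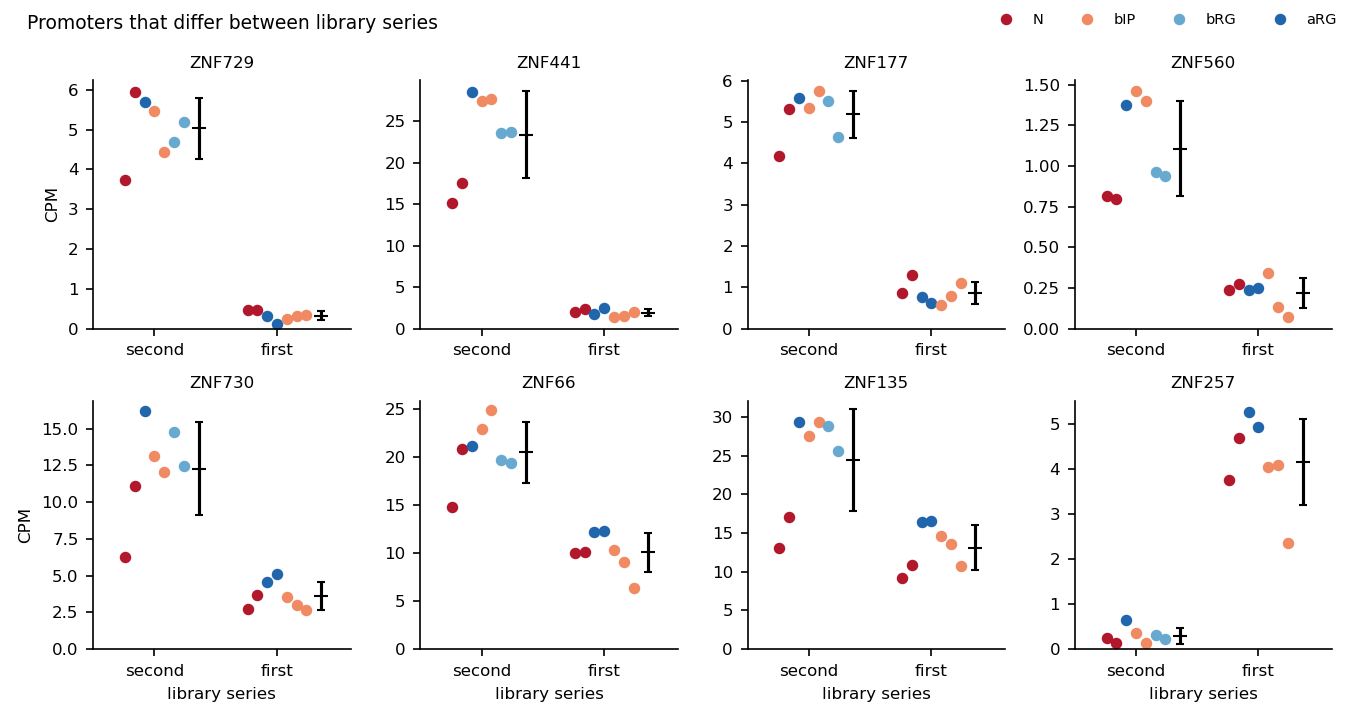
CPM in each library for 8 members that differed between the library series, second series left of the first, with points coloured by cell type and bars giving the mean ± SD of 7 libraries. The series overlap at ZNF135 and at none of the other 7, and of the 8 ZNF257 alone is lower in the second series.

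**Figure D3:**
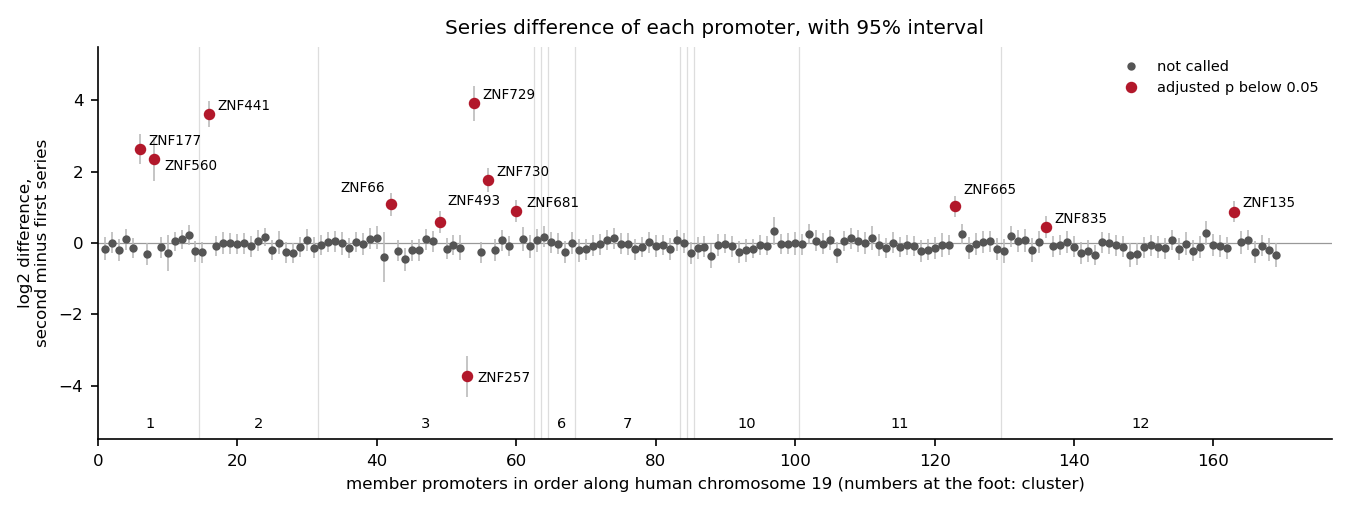
Log2 difference between the second and the first library series, with its 95% interval, for all 169 members in their order along human chromosome 19; vertical lines part the clusters, whose numbers stand at the foot. The 12 called members are named, and between and beside them stand members that were not called, with differences within 0.452 of 0.

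Switched members were found in several clusters, with the most in 1 of them. Split at gaps of more than 1 Mb, the members fell into 12 groups along the chromosome, and 8 of these held at least 3 members. The third of them (31 members, ZNF101 to ZNF254, beside the centromere in human) held 5 of the 11 promoters higher in the second series and the 1 that was lower. In each of the other clusters at most 2 members were called. The order of the members in gorilla was the order in human for all 30 neighbouring pairs of that cluster. Near-identical copies are frequent in this family, and how the authors' counting divided reads between copies is not given in the sources used here.

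With TMM scaling, the comparison of neurons with apical radial glia called the most members among cell types, an order that did not hold with loess offsets, with the 10 CPM minimum or within either series. In N 3 members were called higher (1.78%) and 28 lower (16.6%) than in aRG. Over all regions tested 37.1% were called higher and 29.2% lower, over all promoters 17.2% and 35.1%, and over ZNF promoters elsewhere 1.16% and 35.5%. The median log2 difference was −0.187 over the members and −0.257 over all promoters. Promoters in general thus had more lower than higher calls too, and the split depended on how libraries were scaled. With scaling factors taken from promoters alone, which move the median of all regions up by 0.317, the members split into 48 higher and 18 lower. Of all regions 42.8% were then higher and 21.9% lower. With loess offsets the members split into 91 higher and 12 lower, where 35.4% of all regions were higher and 31.5% lower. With at least 10 CPM required they split into 41 higher and 21 lower, where 38.7% of regions were higher and 38.3% lower. DESeq2 size factors gave 2 higher and 41 lower, where 34.7% of all regions were higher and 32% lower. Of the 28 lower calls 18 were kept with promoter factors and 10 with loess offsets, and the 3 higher calls were kept with promoter factors. Within the first series 6 members were called higher and 14 lower, where 37.5% of all regions were higher and 30% lower. Within the second series alone, with its single aRG library, the median log2 difference was −0.332 over the members and −0.364 over all promoters. Leaving out a single library moved the number of lower calls between 19 and 61, the highest counts coming without bIP4 (61), N4 (57), N2 (53) and N3 (49). Of all regions 26.9% were lower without aRG3, the fit with 19, and 33.3% without bIP4.

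Against intermediate progenitors, neurons had 3 members higher (1.78%) and 11 lower (6.51%). Of all regions 28.8% were called higher and 26.4% lower, and of all promoters 14.3% and 22.9%. The split turned with the scaling. Promoter factors gave 24 higher and 14 lower, with all 11 lower calls kept, where 30.6% of all regions were higher and 20.6% lower. Loess offsets gave 116 higher and 9 lower, where 30.4% of all regions were higher and 28.9% lower. The 10 CPM minimum gave 75 higher and 7 lower, where 34.6% of regions were higher and 33.5% lower. Within the second series 2 members were higher and 18 lower, where 25.3% of all regions were higher and 20.9% lower. Within the first series 19 were higher and 2 lower, where 26.9% of all regions were higher and 26% lower. These 2 were ZNF536 and the second ZNF814 region. Without N2 the number of lower calls was 20, where 26.3% of all regions were lower. Without N3 the number of higher calls was 8, where 28.4% of all regions were higher.

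The remaining comparisons called few members. Between N and bRG 4 were higher and 5 lower, where 32.2% of all regions were called higher and 25.8% lower. Promoter factors gave 46 higher and 10 lower, where 33.5% of all regions were higher and 22.3% lower. Loess offsets gave 89 and 6, where 31.9% of all regions were higher and 29.1% lower. The 10 CPM minimum gave 46 and 11, where 36.7% of regions were higher and 36% lower. Without N3 15 were higher, where 30.4% of all regions were. Between bIP and bRG 3 were higher and 1 lower, where 20.4% of all regions were called higher and 16.1% lower. Promoter factors gave 17 higher and 3 lower there, where 18.7% of all regions were higher and 13.9% lower. Loess offsets gave 12 and 4, where 20% of all regions were higher and 19.2% lower. The 10 CPM minimum gave 5 and 18, where 29.3% of regions were higher and 29.7% lower. Between bIP and aRG 2 were higher and 5 lower, where 24% of all regions were called higher and 20.9% lower. Promoter factors gave 20 higher and 7 lower there, where 26.5% of all regions were higher and 15.3% lower. Loess offsets gave 19 and 15, where 23% of all regions were higher and 24.6% lower. The 10 CPM minimum gave 4 and 46, where 32.2% of regions were higher and 37.9% lower. Leaving out N3 raised the lower calls to 42, where 27.9% of all regions were lower. Comparisons that have a group in common rest on the same libraries of that group.

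Between bRG and aRG no member was called by edgeR, where 0% of all regions were called higher and 0% lower. No member had an unadjusted p below 0.05 there and none was called by DESeq2. With TMM scaling most members leaned lower in bRG: 166 of 169 log2 differences lay below 0, with a median of −0.245. So did promoters in general, with 15666 of 20510 below 0 and a median of −0.193, while the median of all regions was −0.0133. The members' median was −0.0455 with promoter factors and −0.0337 with loess offsets. The count at an unadjusted p below 0.05 was 30 without N3 and 8 without the series term, and no alternative called a member after adjustment. For 164 members (97.0%) the 95% interval held no difference as large as 2-fold in either direction. The smallest p-values belonged to ZNF571, ZNF221 and ZNF233, with log2 differences of −0.49, −0.38 and −0.56 (adjusted p = 0.987 for each). With 2 bRG libraries, all in the second series, smaller differences between bRG and aRG may have been missed.

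With TMM scaling no called difference between cell types reached 4-fold among the members, whereas 2172 of 20510 promoters passed 4-fold between N and aRG.

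Promoters lower in neurons were led by ZNF90 (chr19:15468522-15470197). It had 13.9, 16.2, 12.3 and 13.8 CPM in N, 23.1, 19.7, 15.7, 25 and 22.7 CPM in bIP, 27.9 and 27.2 CPM in bRG, and 33.0, 34.9 and 31.0 CPM in aRG. The libraries of bRG and of aRG all lay above those of bIP and N, and bIP3 alone among the bIP libraries overlapped with the neurons. Between N and aRG the log2 difference was −1.24 ± 0.177 (SE, adjusted p = 1.17e-06), and it was −0.96 between N and bRG (adjusted p = 0.000345) and −0.60 between N and bIP (adjusted p = 0.00221).

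ZNF844 (chr19:7550850-7552250), of another cluster, had the same order. It had 11.3, 12.5, 8.50 and 11.4 CPM in N, 16.6, 15.7, 12.6, 18.7 and 20.1 CPM in bIP, 18.9 and 19 CPM in bRG, and 20.8, 25.4 and 22.7 CPM in aRG. Its log2 difference between N and aRG was −1.08 ± 0.187 (SE, adjusted p = 1.55e-05). ZNF93 (chr19:15251545-15253444), the LINE-1 repressor, had 25.5, 25.5, 16.4 and 22.5 CPM in N against 38.9, 43.9 and 38.9 CPM in aRG, without overlap (log2 difference −0.85 ± 0.202, SE, adjusted p = 0.000628). Its bIP libraries reached 18.5 to 34.6 CPM and overlapped with N, and that difference was not called (adjusted p = 0.0526). ZNF90, ZNF844, ZNF93 and ZNF135 kept their call between N and aRG in all alternatives that could be fitted.

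ZNF135 differed both between cell types and between series. In second-series libraries it had 13.1 and 17.1 CPM in N, 27.6 and 29.4 CPM in bIP, 28.8 and 25.6 CPM in bRG and 29.4 CPM in aRG. In first-series libraries it had 9.16 and 10.8 CPM in N, 14.6, 13.6 and 10.8 CPM in bIP, and 16.4 and 16.5 CPM in aRG. With the series in the fit it was lower in N than in aRG by a log2 difference of −0.85 (adjusted p = 0.000207). ZNF730, also called in the series comparison, was lower in N than in aRG by −0.77 (adjusted p = 0.00355). ZNF43 (chr19:17250648-17252134) had 12.6, 12.3, 5.86 and 10.9 CPM in N against 19, 16.4, 13, 17.8 and 22.2 CPM in bIP (log2 difference −0.77 ± 0.198, SE, adjusted p = 0.00174), with the lowest value in N3, the library that stood apart.

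Promoters highest in intermediate progenitors were ZNF536 and the second ZNF814 region. ZNF536 (chr19:22801859-22802593), which in mammals is expressed in brain and represses neuronal differentiation, stands alone on the chromosome, more than 1 Mb from any other member. It had 7.84, 4.89, 5.48 and 4.74 CPM in N, 14.6, 13.9, 12.5, 15.6 and 16.7 CPM in bIP, 9.40 and 7.82 CPM in bRG, and 6.56, 7.92 and 9.27 CPM in aRG. Every bIP library lay above every library of the other types. The log2 difference was −1.35 ± 0.185 between N and bIP (SE, adjusted p = 9.37e-07) and 0.89 ± 0.20 between bIP and aRG (SE, adjusted p = 0.000632). Between bIP and bRG it was 0.81 (adjusted p = 0.0101), a call that was lost without bIP4 or without bRG2. The region lies 628 bp from the gene, so whether it acts as the promoter is not shown by these data.

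The second ZNF814 region (chr19:47699114-47699784), 895 bp from the gene, had 2.88, 2.65, 2.79 and 2.82 CPM in N, 5.79, 4.21, 6.52, 7.38 and 7.49 CPM in bIP, 3.74 and 3.98 CPM in bRG, and 3.83, 3.24 and 4.56 CPM in aRG. The neurons were the lowest and nearly equal, and 1 bIP library overlapped with aRG. The log2 difference was −1.19 ± 0.190 between N and bIP (SE, adjusted p = 8.19e-06) and 0.86 between bIP and bRG (adjusted p = 0.00802), the second of which was lost without bIP4, without bRG1 or without bRG2. That between bIP and aRG was 0.67 (adjusted p = 0.00822), lost without aRG2 or without bIP4. The second ZNF66 region, with 4 to 24 counts in a library, was lower in N than in aRG by −1.23 and than in bRG by −1.89, and both values rest on these few counts. The other members lower in bIP than in aRG, besides ZNF90, were ZNF730, ZNF844, ZNF682 and ZNF878, and each lost its call without some single libraries.

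**Figure D4:**
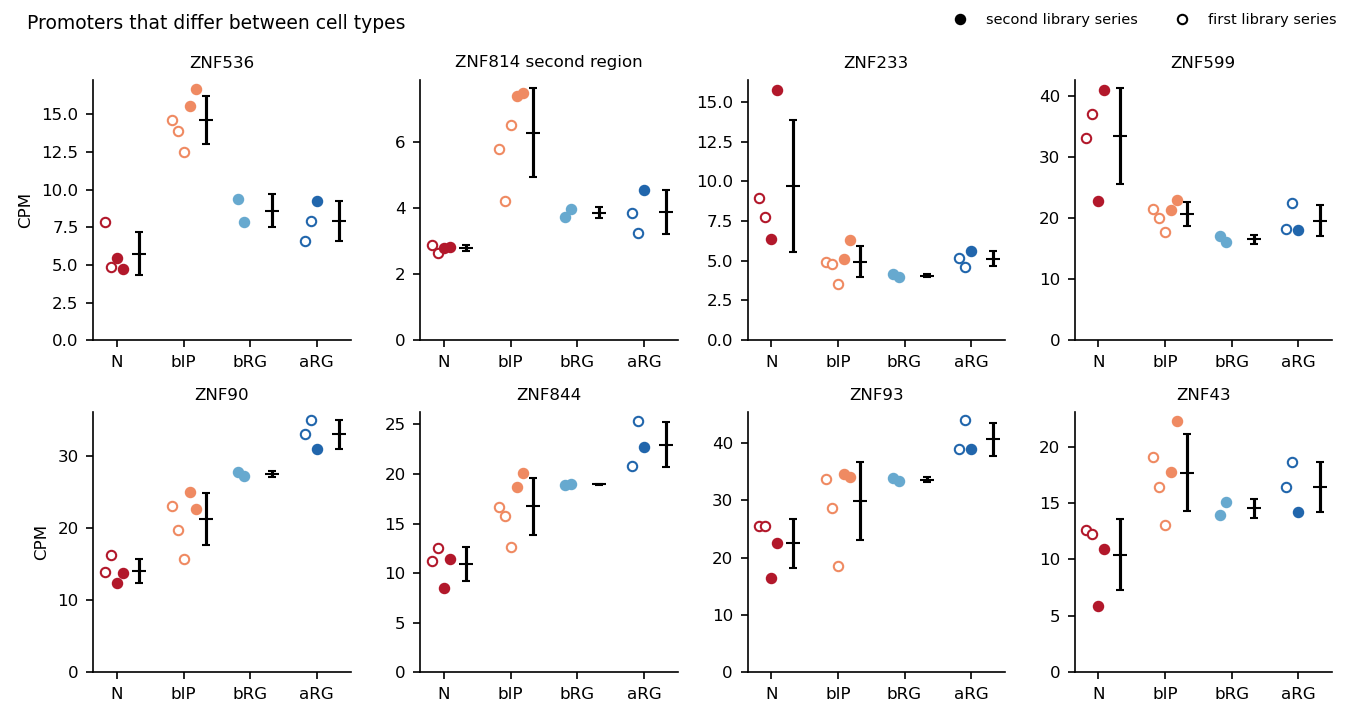
CPM in each library for 8 members called between cell types, in the order N, bIP, bRG and aRG; filled points are second-series and open points first-series libraries, and bars give the mean ± SD. ZNF90, ZNF844 and ZNF93 have their lowest mean in N and their highest in aRG, ZNF536 and the second ZNF814 region are highest in bIP, and ZNF233 and ZNF599 have their highest mean in N.

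Few promoters were higher in neurons. ZNF599 (chr19:27442162-27443753) had 33.2, 37.2, 22.8 and 41.1 CPM in N, 21.6, 20.1, 17.8, 21.4 and 23.0 CPM in bIP, 17.1 and 16.1 CPM in bRG, and 18.3, 22.5 and 18.1 CPM in aRG. The lowest neuron library, N3, overlapped with bIP by a small margin. Neurons exceeded the others by a log2 difference of 0.69 ± 0.165 against bIP (SE, adjusted p = 0.000879), 1.01 against bRG (adjusted p = 0.000646) and 0.78 against aRG (adjusted p = 0.000988).

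ZNF233 (chr19:36556548-36558275) had 8.97, 7.75, 6.39 and 15.8 CPM in N, 4.92, 4.79, 3.54, 5.13 and 6.33 CPM in bIP, 4.15 and 3.98 CPM in bRG, and 5.18, 4.62 and 5.59 CPM in aRG. Every neuron library was above the other types, N4 by far the most. The log2 difference was 0.94 ± 0.210 between N and bIP (SE, adjusted p = 0.000468), and that between N and aRG was 0.85 (adjusted p = 0.00350), with an adjusted p of 0.0869 without N4 and 0.0541 without aRG2. ZNF415 (chr19:43835515-43836944) had 6.0, 7.0, 6.0 and 8.45 CPM in N against 4.65, 5.57, 3.61, 3.98 and 3.82 CPM in bIP (log2 difference 0.67 ± 0.185, SE, adjusted p = 0.00319). ZNF571 (chr19:27939325-27940896) averaged 27.2 ± 5.11 CPM in N, 21.5 ± 2.83 CPM in bIP, 13 ± 1.04 CPM in bRG and 18.6 ± 1.17 CPM in aRG (SD). It was called higher in N than in bRG (log2 difference 1.04) and in bIP than in bRG (0.70), the second of which was lost in 6 of the 14 fits that left out a library. Its call between N and aRG (0.55, adjusted p = 0.0105) was lost in 4 of these fits.

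The clusters did not share the difference between neurons and apical radial glia evenly. In the second cluster (ZNF823 to ZNF490, 17 members on the short arm) all 17 differences lay below 0, 8 members were called lower, and the median log2 difference was −0.437. In the third cluster (ZNF101 to ZNF254) 30 of 31 lay below 0, 7 were called lower and the median was −0.251. The 8 of the second cluster were ZNF844, ZNF20, ZNF878, ZNF763, ZNF69, ZNF491, ZNF799 and ZNF443, whose log2 differences between N and aRG ran from −1.08 to −0.45. ZNF20 averaged 22.4 ± 1.79 CPM in N and 35.6 ± 2.16 CPM in aRG (SD; log2 difference −0.70, adjusted p = 0.000619), and ZNF443, with the smallest difference of the 8, had 22.4 ± 4.62 CPM in N and 30.5 ± 1.45 CPM in aRG (SD; adjusted p = 0.0417). The cluster of 29 members from ZNF175 to ZNF331 had 1 lower call and a median of −0.114, the cluster of 15 from ZNF146 to ZNF607 had 2 lower calls and a median of −0.0751, and the most distal cluster of 40, from ZNF444 to ZNF446, had 4 lower calls and a median of −0.173. The median of the second cluster lay 0.220 to 0.265 below that of all members under each of 11 settings of the fit, while its own value ran between −0.625 and 0.0114, so its place among the clusters did not turn with the scaling although its sign did. Neighbours in a cluster share their surroundings and are not independent, and no test was made between clusters.

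**Figure D5:**
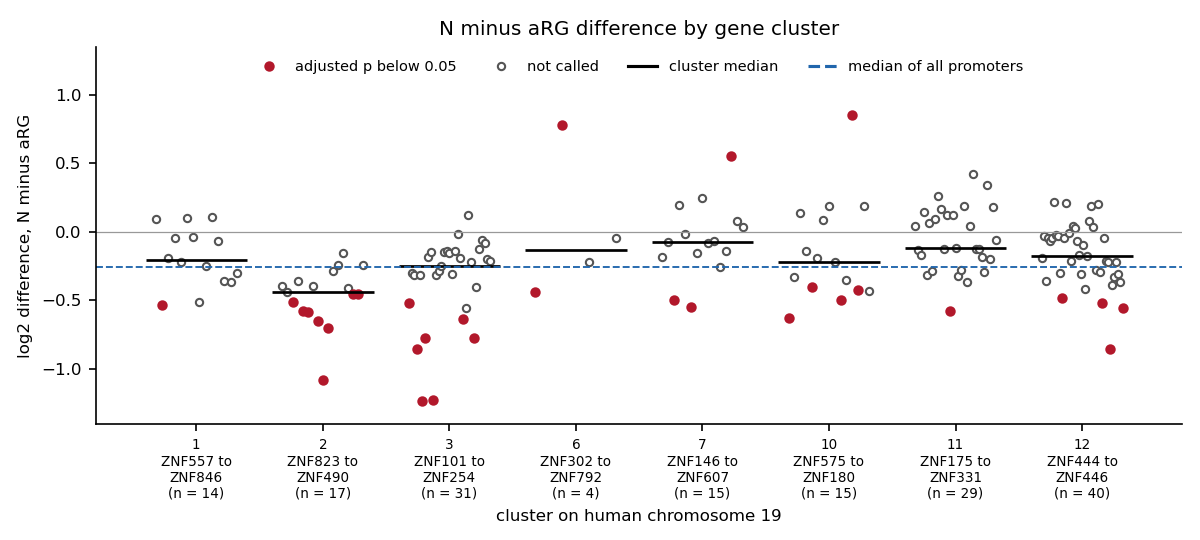
Log2 difference between N and aRG for each member of the 8 clusters with at least 3 members, filled where called; black lines are cluster medians and the dashed line is the median of all promoters, −0.257. The second cluster (ZNF823 to ZNF490) has the lowest median, −0.437, and all of its 17 members lie below 0.

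Of 27 listed zinc finger gene symbols with a known role, 21 had a promoter among the members. Of these, 4 were called in some comparison with TMM scaling: ZNF93, ZNF43, ZNF536 and ZNF135. Between N and aRG 3 of the 21 were lower, beside 28 of all 169 members. ZNF91 (chr19:18599430-18600937), the SVA repressor, averaged 21.3 ± 4.59 CPM in N, 24.4 ± 3.06 CPM in bIP, 19.1 ± 2.57 CPM in bRG and 23.1 ± 1.05 CPM in aRG (SD), and no comparison called it. ZNF274 averaged 26.6 ± 5.23 CPM in N, 27.7 ± 4.39 CPM in bIP, 26.5 ± 0.153 CPM in bRG and 33.1 ± 1.89 CPM in aRG (SD), and was not called either. The same held for ZNF587, which represses endogenous retroviruses of the HERV-K group, for ZNF350, a partner of BRCA1, for the imprinted gene ZNF331, for ZNF675, which inhibits signalling through TRAF6, and for ZNF85, ZNF431, ZNF649, ZNF382, ZNF224, ZNF180, ZNF507, ZNF30, ZNF626, ZNF667 and ZNF471. These results missed the threshold, which does not show that the levels were equal.

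Partner genes through which KRAB zinc finger proteins silence chromatin were examined by a list of 24 symbols, of which 15 were measured. Between N and aRG 0 were higher and 7 lower, where 35.1% of all promoters were lower, so the count is near that of promoters in general. DNMT3A and DNMT3B, which set DNA methylation on unmethylated DNA, had log2 differences of −1.22 and −1.03, and UHRF1, which helps to maintain it, had −0.81. HDAC1, a histone deacetylase, had −0.81 and CBX1, a heterochromatin protein, −0.48. SETDB1 had −0.44 (adjusted p = 0.0426) and TRIM33 −0.43 (adjusted p = 0.0313). TRIM28 itself was not called, with 51.7 ± 16.3 CPM in N and 62.9 ± 11.5 CPM in aRG (SD; log2 difference −0.26, adjusted p = 0.287). With promoter scaling factors 0 of the 15 were higher and 4 lower, and with loess offsets 5 were higher and 4 lower. Between N and bIP 0 were higher and 3 lower, these being HDAC1, DNMT3A and DNMT3B, where 22.9% of all promoters were lower. There promoter factors gave 0 higher and 5 lower, loess offsets 5 and 1, and the 10 CPM minimum 3 and 2. Between the library series 0 were called with TMM scaling and by DESeq2, 3 higher and 3 lower with promoter factors, 3 and 5 with loess offsets, and 1 and 4 with the 10 CPM minimum.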

How the data were processed

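The authors deposited raw counts per region for 14 libraries and, for each cell type, a consensus peak set with a −log10 q value per peak. The submitters' processing notes name MACS2, bcl2fastq 2.20.0, and panTro6 and hg38 as builds. Neither the aligner nor the counting rule nor the peak sets' build is given in the sources used here. Some region starts coincide with peak starts: of 204249 regions, 16758 start at a peak start of the N set. For the bIP, bRG and aRG sets the numbers are 16970, 15216 and 12580. Peaks touched 63.4% of the regions outside gorilla chromosomes 2A and 2B, against 11.6% of regions after a shift of 50000 bp. Peaks were therefore read on gorGor6. The shares of promoters touched by a peak include promoters on chromosomes 2A and 2B. Fragments were size selected by beads, per the labels' protocols. The table holds 218080 regions, of which 13823 without a gorilla position held 0 counts in every library and were left out with 8 repeats.

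The quasi-likelihood F test of edgeR 4.0.16 (R 4.3.3, TMM, filterByExpr) was run on the counts of 200931 regions with cell type and library series as terms. Benjamini-Hochberg adjustment covered every region tested, with a threshold of 0.05. A second fit with 1 mean per cell type and series, with 7 residual degrees of freedom, gave series differences within N and bIP and the interaction. CPM use TMM-scaled totals. DESeq2 1.42.0, limma 3.58.1 (loess offsets), other scalings, other filters, the replicate number as a term and each library left out were alternatives. The authors' gene distance was used as deposited, and the point it is measured from is not stated. Of 166 genes, 120 matched a RefSeq gene of NHGRI_mGorGor1-v2.1_pri by symbol or synonym. Sequence was not used here. Clusters split at gaps over 1 Mb in hg38.

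Genes named were up to 6 called members each way by size of the log2 difference in the comparisons of N with bIP, N with aRG, bIP with aRG and the series, up to 3 each way elsewhere, the 5 highest and 5 lowest levels, and the listed members with a known role and partner genes. The genes beside switched promoters, and the members called between the series beyond the first 6 or called lower in the second cluster, were named after their values were seen. The members and lists were chosen with earlier results of these data known.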

Additional observations from a re-analysis of the deposited data

Results flagged for a closer look

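In the bIP group, 1 library lay far from the other 4 at 4 of the members examined for this, always bIP3 and always as the lowest. ZNF444 had 42.6 CPM in bIP3 against 57.8 to 62.6 CPM in the other bIP libraries. ZNF414 had 34.7 CPM, ZNF675 had 16.6 CPM and ZNF350 had 10.1 CPM in bIP3. In all, 86 groups of values were examined and 4 stood out, where chance alone gives about 1 in 20. bIP3 had the fewest counts of all libraries, 12835000, and the lowest share of counts in promoters among the bIP libraries, 32.8%, and the part of these in the 4 values was not tested.

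The difference between the library series at the ZNF441 promoter was unlike in N and in bIP, by a log2 difference of −1.16 (edgeR, adjusted p = 0.0320). The second series exceeded the first by 2.94 in N and by 4.10 in bIP, with 2 N libraries in each series. Over all 169 members the median of this difference was −0.550, with 165 below 0, and over all promoters it was −0.426.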

How the results depend on the processing

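Of 50 calls of named members, 9 were kept in every alternative that could be fitted: ZNF233, ZNF415, ZNF536 and the second ZNF814 region between N and bIP, ZNF90, ZNF844, ZNF93 and ZNF135 between N and aRG, and ZNF441 between the series. 1 changed sign, ZNF221 between N and aRG, which had 0.0541 with loess offsets. The 12 series calls were all kept with DESeq2 size factors, promoter factors, loess offsets, DESeq2 and no filter. Of counts called higher and lower, promoter factors gave 20 higher for bIP against aRG, 17 and 3 for bIP against bRG, 48 and 18 for N against aRG, 46 and 10 for N against bRG, 24 higher for N against bIP, and 24 lower for the second series. Loess offsets gave, in the same order, 19 and 15, 12 and 4, 91 and 12, 89 higher, 116 higher, and 49 lower. At least 10 CPM gave 4 and 46, 5 and 18, 41 higher, 46 and 11, 75 and 7, and 55 lower. DESeq2 size factors gave 8 lower for N against bRG, and leaving out the series term gave 3 lower for bIP against aRG. The DESeq2 test gave 12, 46 and 10 lower and no filter 17, 64 and 12 lower for bIP against aRG, N against aRG and N against bRG. Within the second series the counts were 0 and 0 for bIP against aRG, 0 lower for bIP against bRG, 0 and 12 for N against aRG, 8 lower for N against bRG and 18 lower for N against bIP. Within the first they were 22 lower for bIP against aRG, 6 and 14 for N against aRG, and 19 and 2 for N against bIP. A distance limit of 500 bp gave 0 higher for bIP against aRG and 1 and 0 for bIP against bRG. Shares of all regions under promoter factors, loess offsets and the 10 CPM minimum stand with these comparisons above. For bIP against aRG, N against aRG and N against bRG, the DESeq2 test called 22.3%, 31.5% and 26.9% of all regions lower. Without a filter these shares were 24.9%, 33.2% and 28.4%. Within the first series 23.3% of all regions were lower for bIP against aRG. Within the second, 15.4% were lower for bIP against bRG and 23.3% for N against bRG. The causes were not tested.

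Whether the replicate numbers pair the libraries was not settled. Over 16 pairs with the same number the correlation of deviations ran from −0.258 to 0.340, and 7 exceeded 0.1. These pairs lie partly within a series and partly across the series, so the range mixes pairing with the series difference. Within the first series aRG1 with bIP1 had 0.340 and aRG2 with bIP2 had 0.296. Pairs of unlike number there were similar, 0.327 for aRG1 with bIP2 and 0.342 for aRG2 with bIP1. With the replicate block the counts were 1 and 8 for bIP against aRG, 0 and 0 for bIP against bRG, 54 lower for N against aRG, 0 and 0 for N against bRG, 5 higher for N against bIP, and 1 and 0 for the series, and 6 members had an unadjusted p below 0.05 for bRG against aRG. Leaving out each library moved the counts between 1 and 2 higher and 1 and 42 lower for bIP against aRG, 0 and 6 higher and 0 and 1 lower for bIP against bRG, 1 and 3 higher and 19 and 61 lower for N against aRG, 3 and 15 higher and 3 and 12 lower for N against bRG, 3 and 8 higher and 8 and 20 lower for N against bIP, and 10 and 13 higher and 1 and 2 lower for the series. Where this left 1 library in a group and series, its spread was taken to be that of the others. Promoters below 1 CPM rest on a few counts, and differences there are limited by depth.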
